A study of Mus musculus with 4 samples.

Results

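Chemokine expression was measured in mouse liver on 4 Affymetrix arrays, each hybridised with a pool of RNA from several animals. The genes described are 10 chemokines, Ccl2, Ccl4, Ccl5, Ccl6, Ccl9, Ccl24, Cxcl9, Cxcl10, Cxcl12 and Cxcl13, of 18194 genes with a probe set that carries a single gene symbol. They were represented by all 16 probe sets annotated to exactly 1 of these symbols, with 5 genes on 1 probe set and 5 on several. All animals were male C57BL/6J mice, aged 8 to 12 weeks when the diets began, and both diets had palm oil in place of lard. Fat supplied 45% of the energy of the high-fat diet and 10% of that of the low-fat diet, and each was fed for 20 weeks. The groups were low-fat diet with clodronate (8 mice), low-fat diet with PBS (8 mice), high-fat diet with clodronate (10 mice) and high-fat diet with PBS (10 mice), injected into the peritoneal cavity in the last week of feeding. Clodronate was given in liposomes, which phagocytes engulf and are killed by, whereas the controls received phosphate-buffered saline (PBS). Liposome, drug and macrophage loss therefore cannot be told apart. The study asked how Kupffer cells, which are liver-resident macrophages, contribute to hepatic fat accumulation.

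Each group was 1 array, so the spread between mice was not measured and the number of arrays limits the precision. The values are log2 expression as deposited, with array medians of 2.73 to 2.79 over 45101 probe sets. A value below 4 was treated as too dim to measure. A difference against such a value is given as a bound, with the dim value set to 4. Levels of different probe sets are not compared with each other, because probes differ in how well they bind. Where the levels of a marker list are summed, the brightest probe sets carry the most weight. The effect of clodronate as a mean of both diets, and of diet as a mean of both injections, was tested with limma in 1 additive model of 8650 genes, those reaching 4 on any array. Clodronate lowered 84 of these genes and raised 10, that is 0.971% and 0.116%.

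Chemokines are small secreted proteins that bind chemokine receptors on leukocytes and guide their movement. The CC family, whose first cysteines lie side by side, and the CXC family, in which another residue separates them, attract different cells: many CC chemokines attract monocytes, macrophages and eosinophils, whereas Cxcl9, Cxcl10 and Cxcl11 attract activated T and NK cells through the receptor Cxcr3. In liver, chemokines are made by Kupffer cells, endothelial cells, stellate cells and hepatocytes.

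Of the 10 chemokines, 5 reached 4 on some array by the probe set that represented the gene, the one with the highest mean. These were Ccl6, Ccl9, Cxcl9, Cxcl10 and Cxcl12, and Ccl6 entered the test only through its PBS arrays. Cxcl13 exceeded 4 on 1 array with another probe set. Ccl2, Ccl4, Ccl5 and Ccl24 stayed below 4 on all 4 arrays. Over probe sets, 6 of 16 were at 4 or more on all 4 arrays, 4 on some arrays and 6 on none.

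Ccl6 and Cxcl9 fell with clodronate, and none of the 5 chemokines tested rose. The call of Cxcl9 was lost in 6 of 8 alternative settings. Ccl6, a CC chemokine of mouse macrophages and myeloid cells, was at least 9-fold lower on each diet. Cxcl9, a chemokine induced by interferon gamma, was 2.90-fold lower on the low-fat diet and 1.86-fold lower on the high-fat diet. Ccl9 and Cxcl12 differed little between the arrays. Cxcl10 was 1.67-fold lower with clodronate on the low-fat diet and did not pass the test. The 2 genes that fell are 2 of the 5 tested, where 0.971% of all genes fell. Ccl6 is among the 5 only through its PBS arrays. A filter of 4 or more on all 4 arrays leaves Ccl6 out. With that filter 1 of 4 chemokines, Cxcl9, was called, where 30 of 7945 genes fell. Of the 5, 2 had an unadjusted p under 0.05. Over the 5 tested genes the median averaged difference was -0.33, against -0.00411 over all 8650 genes.

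**Figure D1:**
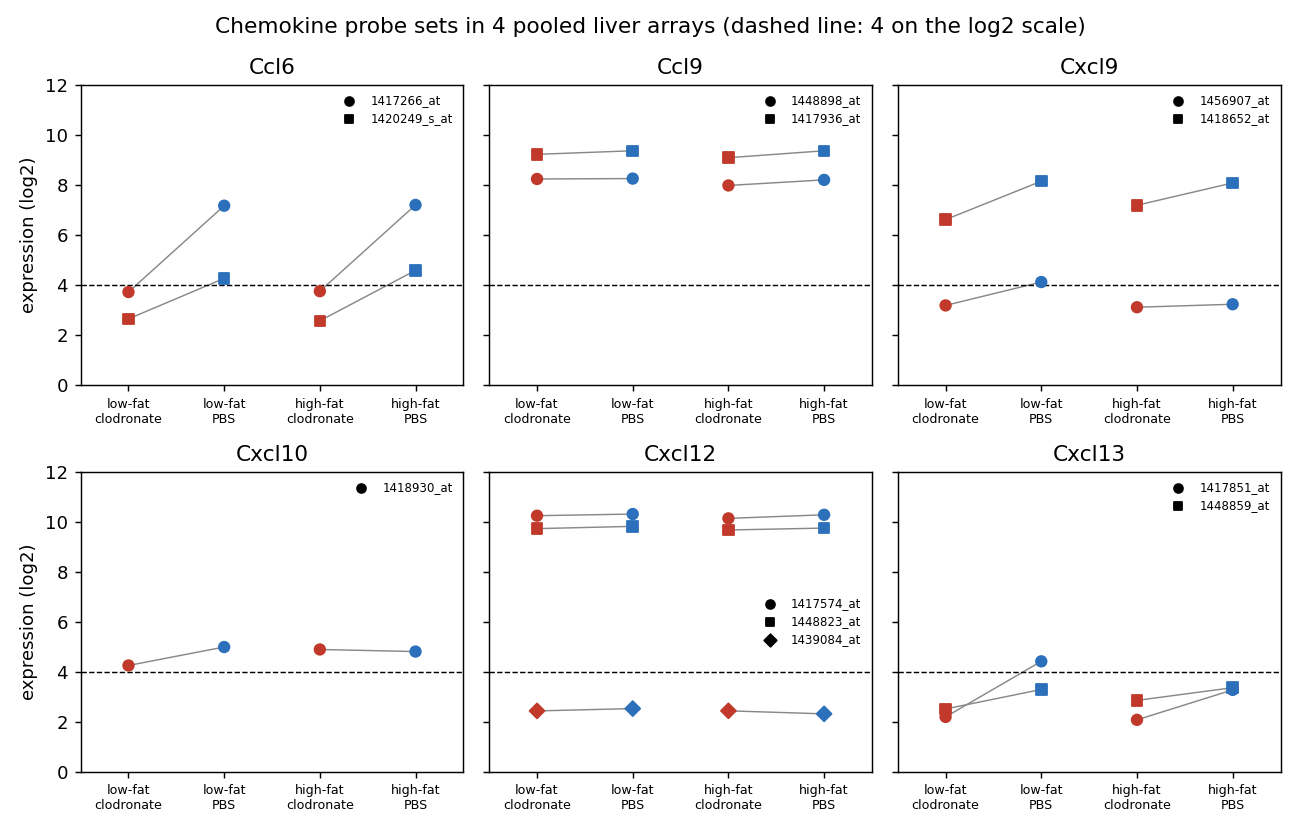
Expression (log2) of 6 chemokines on the 4 pooled arrays, with a marker shape per probe set, red for clodronate and blue for PBS, lines joining the arrays of 1 diet, and a dashed line at 4. Both Ccl6 probe sets lie below 4 with clodronate and above 4 with PBS on each diet, while the Ccl9 probe sets and the brighter 2 of Cxcl12 stay above 7 on all arrays.

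Among the CC chemokines, Ccl6 had the largest difference. Its probe set 1417266_at was at 3.72 with clodronate, against 7.17 with PBS on the low-fat diet, and at 3.75 with clodronate, against 7.20 with PBS on the high-fat diet. Both clodronate arrays lay below 4 and both PBS arrays well above it. With the dim values set to 4, the difference was -3.17 on the low-fat diet and -3.20 on the high-fat diet, at least 9-fold in each. Averaged over the diets, the deposited values fell by 3.45 (SE 0.19; SD between the diets 0.0022, n = 2), with a limma Benjamini-Hochberg adjusted p of 1.1e-05. This was the drop ranked 14 of 8650 genes. Its size, SE, SD and p-value rest on clodronate values below 4, so the small SD is no measure of precision. With values below 4 set to 4 in the model the fall was 3.19 (limma adjusted p = 0.000766).

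The other Ccl6 probe set, 1420249_s_at, was dimmer and moved the same way. It was at 2.65 with clodronate, against 4.26 with PBS on the low-fat diet, and at 2.57 with clodronate, against 4.59 with PBS on the high-fat diet. The bounds were therefore small, at least 1.20-fold and at least 1.50-fold. Where all 16298 probe sets at 4 or more on some array were tested on their own, 0.442% were called lower and 0.0123% higher with clodronate. Both Ccl6 probe sets were among these, 1417266_at with a limma adjusted p of 0.00256 and 1420249_s_at with one of 0.0412. Both entered this test only through their PBS arrays and were compared with clodronate values below 4, so the bounds above describe what was measured.

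Ccl9, a CC chemokine that like Ccl6 signals through Ccr1 in mice, did not pass the test. Its probe set 1417936_at was at 9.23 with clodronate, against 9.37 with PBS on the low-fat diet, and at 9.09 with clodronate, against 9.37 with PBS on the high-fat diet. The averaged difference was -0.21 (SE 0.10; SD 0.095, n = 2; limma adjusted p = 1). Probe set 1448898_at was at 8.24 with clodronate, against 8.26 with PBS on the low-fat diet, and at 7.98 with clodronate, against 8.20 with PBS on the high-fat diet. All 4 of these clodronate values lay below their PBS values, by at most 0.28. Ccl9 thus kept 90.6% and 82.6% of its PBS level on the linear scale (1417936_at, low fat and high fat), and Ccl6 at most 11.1% and 10.9% (1417266_at, with the dim values set to 4). The difference between these 2 genes in response was not tested.

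Ccl6 and Ccl9 are neighbours on mouse chromosome 11 with no annotated gene lying wholly between them in the RefSeq table of assembly GRCm38.p6. Promoter entries from RefSeq (GRCm38.p6) were matched for 6 of the 10 chemokines. The 250 bases before the annotated start of Ccl6 and Ccl9 are shown because 1 of these adjacent genes passed the test and the other did not. Capitals mark matches, on either strand, to AGGAAGT (a core that PU.1 and other ETS factors bind), TATAAA, the consensus of NF-kappaB sites, GAAANNGAAA (the interferon-stimulated response element) or TTCNNNGAA (the site of STAT factors).
Ccl6, chr11:83593088-83593337, minus strand: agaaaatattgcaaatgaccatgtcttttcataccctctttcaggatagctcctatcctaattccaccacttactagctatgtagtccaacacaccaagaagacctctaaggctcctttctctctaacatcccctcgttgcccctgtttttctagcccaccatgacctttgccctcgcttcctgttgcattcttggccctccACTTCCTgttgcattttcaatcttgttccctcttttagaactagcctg
Ccl9, chr11:83578637-83578886, minus strand: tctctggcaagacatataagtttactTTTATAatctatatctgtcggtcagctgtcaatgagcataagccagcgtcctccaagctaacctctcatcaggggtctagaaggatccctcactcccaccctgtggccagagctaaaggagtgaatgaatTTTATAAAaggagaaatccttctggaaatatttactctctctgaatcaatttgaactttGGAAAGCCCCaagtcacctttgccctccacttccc
The Ccl6 window held 1 match to AGGAAGT, read on the opposite strand at -48 to -42 from the start. This motif was found in 7.69% of 32851 promoter windows of the same length. The Ccl9 window held no such match. It held TATAAA at -224 to -219 and, as overlapping matches on opposite strands, at -94 to -89 and -92 to -87, and an NF-kappaB consensus match at -35 to -26. TATAAA was found in 12.4% of windows and the NF-kappaB consensus in 7.25%. These matches describe letters in the windows and are not evidence of binding.

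Ccl2, Ccl4, Ccl5 and Ccl24 were too dim for any difference to be measured. Ccl2, the ligand of Ccr2 that recruits monocytes, was at 3.16 with clodronate, against 3.42 with PBS on the low-fat diet, and at 3.26 with clodronate, against 3.21 with PBS on the high-fat diet. Ccl4 ranged from 1.58 to 1.72 over the 4 arrays. Ccl5, a chemokine made by T and NK cells, ranged from 2.71 to 3.10, with the highest value on the high-fat PBS array.

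Ccl24, a ligand of Ccr3 that attracts eosinophils, was at 1.81 with clodronate, against 2.58 with PBS on the low-fat diet, and at 1.97 with clodronate, against 2.48 with PBS on the high-fat diet. Both clodronate values lay below both PBS values, but all 4 were under 4 and no fold is given.

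**Figure D2:**
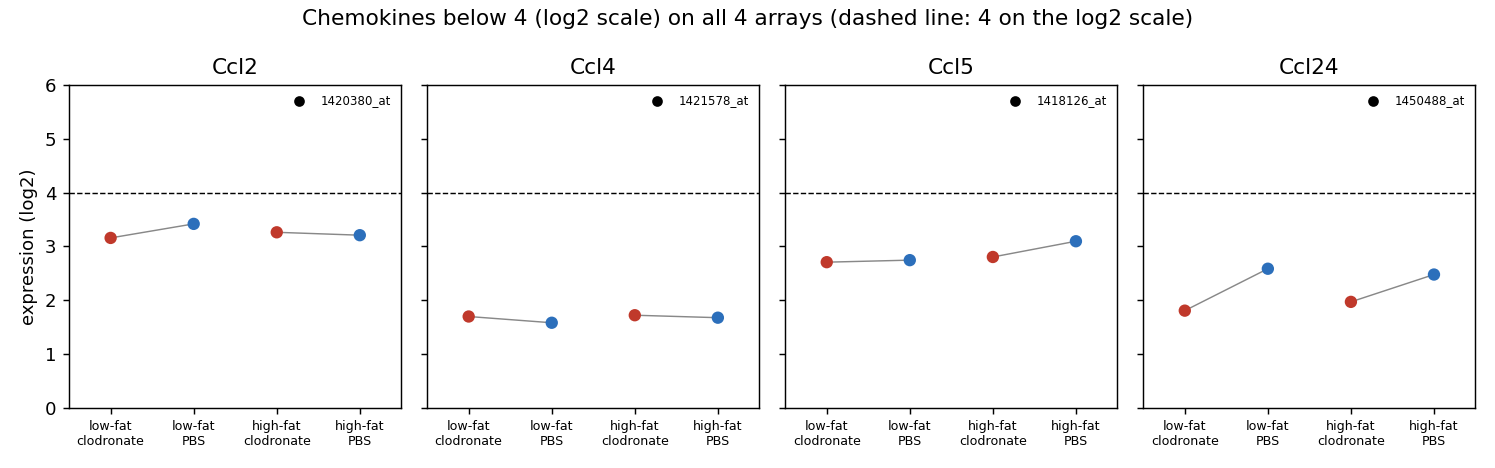
Expression (log2) of Ccl2, Ccl4, Ccl5 and Ccl24 on the 4 pooled arrays, red for clodronate and blue for PBS, with a dashed line at 4. Every point lies under the line, the highest being Ccl2 at 3.42 on the low-fat PBS array.

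Among the CXC chemokines, Cxcl9 fell with clodronate. Its probe set 1418652_at was at 6.62 with clodronate, against 8.15 with PBS on the low-fat diet, and at 7.19 with clodronate, against 8.08 with PBS on the high-fat diet. All 4 values were measurable, and both clodronate arrays lay below both PBS arrays. On the linear scale 34.5% of the PBS level remained on the low-fat diet and 53.8% on the high-fat diet. Averaged over the diets Cxcl9 fell by 1.21 (SE 0.17; SD 0.45, n = 2; limma adjusted p = 0.00594), a drop ranked 68 of 8650. The call was lost in 6 of 8 alternative settings, with limma adjusted p of 0.0584 to 0.266, and the size of the difference was at least 0.87 in all 8.

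The dim Cxcl9 probe set 1456907_at was at 3.18 with clodronate, against 4.12 with PBS on the low-fat diet, and at 3.11 with clodronate, against 3.23 with PBS on the high-fat diet. It exceeded 4 only on the low-fat PBS array, which bounds its difference at 1.09-fold or more there.

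Cxcl10, the other member of the list that signals through Cxcr3, did not pass. It was at 4.25 with clodronate, against 4.99 with PBS on the low-fat diet, and at 4.89 with clodronate, against 4.81 with PBS on the high-fat diet. The low-fat clodronate array was the lowest, and the other 3 lay between 4.81 and 4.99. Its differences were thus -0.74 and 0.08, and the average was -0.33 (SE 0.24; SD 0.58, n = 2; limma adjusted p = 1). Whether the clodronate effect differed between the diets could not be tested for any gene, because the 4 single arrays leave no residual degree of freedom once that term is fitted.

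Cxcl9 and Cxcl10 lie close together on chromosome 5. No annotated gene lies wholly between them, and genes that overlap either one were not counted. Their windows are shown because their clodronate differences were both below 0 on the low-fat diet, and were -0.89 for Cxcl9 and 0.08 for Cxcl10 on the high-fat diet.
Cxcl9, chr5:92328080-92328329, minus strand: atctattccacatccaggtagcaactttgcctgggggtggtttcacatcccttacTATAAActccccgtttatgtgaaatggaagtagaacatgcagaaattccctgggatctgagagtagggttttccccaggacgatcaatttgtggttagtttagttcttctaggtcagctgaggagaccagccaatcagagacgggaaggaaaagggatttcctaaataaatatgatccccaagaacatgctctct
Cxcl10, chr5:92348890-92349139, minus strand: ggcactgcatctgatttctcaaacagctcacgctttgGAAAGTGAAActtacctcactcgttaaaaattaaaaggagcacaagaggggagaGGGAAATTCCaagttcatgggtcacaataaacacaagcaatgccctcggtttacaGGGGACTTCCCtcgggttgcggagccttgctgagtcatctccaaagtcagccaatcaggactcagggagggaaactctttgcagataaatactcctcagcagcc
The Cxcl10 window held GAAAGTGAAA at -213 to -204, a match to GAAANNGAAA, which was found in 2.98% of the 32851 windows. It also held NF-kappaB consensus matches at -159 to -150, -104 to -95 and -103 to -94, the last 2 overlapping. In the Cxcl9 window the single match to the motifs searched was TATAAA at -195 to -190. Other forms of interferon response element were not searched for. TTCNNNGAA was found in 7.02% of windows and in none of the 6 chemokine windows.

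Cxcl12, which binds Cxcr4 and is made by endothelial and stromal cells, hardly differed between arrays. Probe set 1417574_at was at 10.24 with clodronate, against 10.31 with PBS on the low-fat diet, and at 10.13 with clodronate, against 10.28 with PBS on the high-fat diet. Its averaged clodronate difference was -0.10 (SE 0.08; SD 0.054, n = 2; limma adjusted p = 1). Probe set 1448823_at was at 9.72 with clodronate, against 9.81 with PBS on the low-fat diet, and at 9.67 with clodronate, against 9.74 with PBS on the high-fat diet. The third probe set, 1439084_at, ranged from 2.32 to 2.53 and was not measurable.

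Cxcl13, the ligand of Cxcr5 that attracts B cells, was close to the limit. Probe set 1417851_at was at 2.19 with clodronate, against 4.42 with PBS on the low-fat diet, and at 2.08 with clodronate, against 3.28 with PBS on the high-fat diet. Only the low-fat PBS array exceeded 4, so that Cxcl13 was at least 1.33-fold lower with clodronate on that diet and not measurable on the other. Probe set 1448859_at, which has the higher mean and represented the gene, was at 2.51 with clodronate, against 3.29 with PBS on the low-fat diet, and at 2.85 with clodronate, against 3.36 with PBS on the high-fat diet. Both probe sets had lower deposited values with clodronate on each diet, and 7 of these 8 values were below 4.

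**Figure D3:**
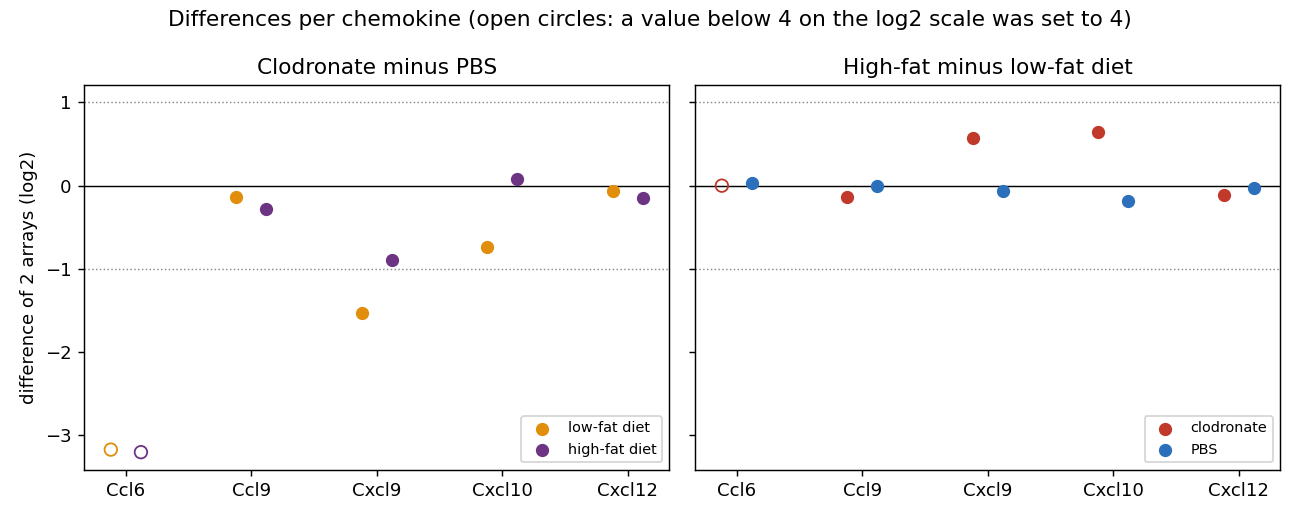
Differences (log2) between 2 arrays for the 5 chemokines tested, clodronate minus PBS on each diet at left and high-fat minus low-fat diet with each injection at right. Open circles involve a value below 4 that was set to 4, dotted lines mark 2-fold, and only Ccl6 on both diets and Cxcl9 on the low-fat diet lie beyond them.

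By single pairs of arrays, Ccl6 and Cxcl9 were 2-fold or more lower with clodronate on the low-fat diet, where 0.705% of 8650 genes were. On the high-fat diet Ccl6 was, where 0.809% of genes were. None of the 5 was 2-fold or more higher with clodronate, against 0.22% of genes on the low-fat diet and 0.0925% on the high-fat diet. The median of the 5 was -0.74 on the low-fat diet and -0.28 on the high-fat diet, against 0.04 and -0.05 over all 8650 genes. Ccl6 is among the 5 only through its PBS arrays, which favours falls in these counts and medians.

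**Figure D4:**
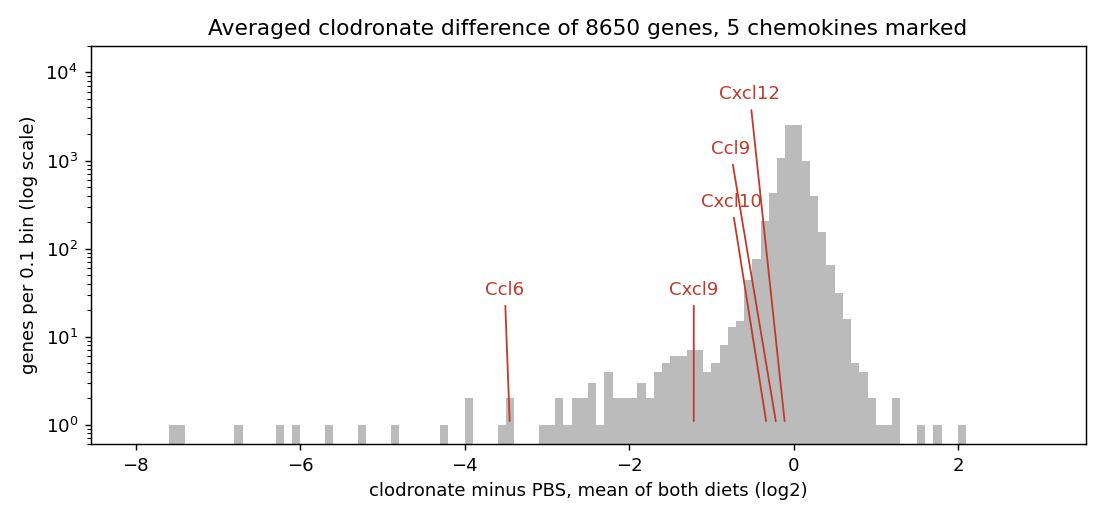
Histogram of the clodronate difference averaged over both diets (log2) for 8650 genes, with a logarithmic count axis and 5 chemokines marked. Ccl6 at -3.45 and Cxcl9 at -1.21 lie in the lower tail, and Cxcl10, Ccl9 and Cxcl12 lie between -0.33 and -0.10.

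Macrophage markers moved with clodronate on the same arrays. Of 10 Kupffer cell markers, 6 were below 4 on both clodronate arrays and entered the test only through their PBS arrays. The 2 at 4 or more on all 4 arrays, Fcna, a lectin of the ficolin family, and Slc40a1, the iron exporter ferroportin, both fell in limma, by 1.80 (adjusted p = 3.16e-05) and 0.62 (adjusted p = 0.0053). The summed linear level of the 10 with clodronate was 24.1% of that with PBS on the low-fat diet and 23.4% on the high-fat diet. Slc40a1, the brightest, made up most of the clodronate sums, and without it they were 4.86% and 6.22%. Of 12 general macrophage markers 7 were at 4 or more on all 4 arrays, and 5 of these fell, where 0.971% of all genes did. Mrc1, the mannose receptor, and Msr1, a scavenger receptor, did not pass (limma adjusted p = 0.441 and 0.0729). The summed level of the 12 was 19.7% of the PBS level on the low-fat diet and 21.4% on the high-fat diet, and 11.45% and 13.49% without Mrc1, the brightest. In pooled tissue, fewer cells of a type and less RNA per cell cannot be told apart, and the part of macrophage loss in the falls of Ccl6 and Cxcl9 was not tested.

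Markers of endothelial cells, stellate cells and hepatocytes had summed levels close to those with PBS. With low fat and with high fat, the summed level after clodronate was 108% and 99.2% of that with PBS for 10 sinusoidal endothelial markers, 110% and 99.1% for 10 stellate cell markers, and 99.7% and 98.2% for 9 hepatocyte markers. In limma 0 of the 10 endothelial, 8 stellate and 9 hepatocyte markers tested were called, with 1 endothelial marker and 0 of the others at an unadjusted p under 0.05. Among markers of monocytes 4 of 5, of neutrophils 4 of 6, of dendritic cells 5 of 6 and of cholangiocytes 3 of 4 were below 4 on all arrays, and 0 of the remaining ones were called. The 2 neutrophil markers tested, S100a8 and S100a9, had an unadjusted p under 0.05 (limma adjusted p = 0.392 and 0.84). They entered the test only through the low-fat clodronate array. Their other values were below 4 and were used as deposited, so these p-values are no evidence of a rise. S100a8 was at 4.15 with clodronate, against 2.14 with PBS on the low-fat diet, and at 3.07 with clodronate, against 2.67 with PBS on the high-fat diet. S100a9 was at 4.05 with clodronate, against 2.26 with PBS on the low-fat diet, and at 2.93 with clodronate, against 2.82 with PBS on the high-fat diet. Both reached 4 only on the low-fat clodronate array, which is also the array with the lowest Cxcl9 and Cxcl10. With PBS on the low-fat diet all 6 neutrophil markers were below 4, so no summed level is given. With the dim values set to 4, S100a8 was at least 1.11-fold and S100a9 at least 1.04-fold higher with clodronate there. The 4 other markers were dim there: Ngp at 1.83 against 1.86, Camp 2.12 against 1.91, Mpo 2.09 against 2.16, Elane 2.13 against 2.28. On the high-fat diet all 6 were below 4 on both arrays, and no difference was measurable. The part of neutrophils in the Cxcl9 and Cxcl10 values was not tested. All 9 T and NK cell markers with a probe set and all 5 B cell markers were below 4 on every array, at most 3.33 and 3.19. The leukocytes that Cxcl9, Cxcl10 and Cxcl13 attract were therefore not measurable by these genes.

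The high-fat diet moved none of the 5 chemokines tested past the threshold. Averaged over the injections, 0 of 5 were called in limma and 0 had an unadjusted p under 0.05, where 0.867% of all genes tested rose and 0.821% fell. The averaged diet differences were 0.03 for Ccl6, -0.07 for Ccl9, 0.25 for Cxcl9, 0.23 for Cxcl10 and -0.07 for Cxcl12. Limma adjusted p-values ran from 0.592 for Cxcl9 to 0.979 for Ccl6.

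In PBS-injected mice the diet differences of these chemokines were small. Cxcl9 differed by -0.07, Cxcl10 by -0.18 and Ccl6 by 0.03, and none was 2-fold or more changed, where 0.335% of genes were higher and 0.335% lower. In clodronate-injected mice Cxcl9 was higher on the high-fat diet by 0.57 and Cxcl10 by 0.64, both under 2-fold. In this pair 0.358% of all genes were beyond 2-fold upwards and 0.74% downwards. These were 31 and 64 genes as deposited, and 43 and 40 after quantile normalization. The clodronate and diet comparisons use the same 4 arrays, so the low values of Cxcl9 and Cxcl10 on the low-fat clodronate array enter both.

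Other genes of the chemokine system were mostly dim. Of 28 further chemokines 25 had a probe set, 5 of these were at 4 or more on some array, and 0 were called with clodronate. Cxcl1, a ligand of Cxcr2 that attracts neutrophils, rose with the high-fat diet, as the single one of the 5 called. It was at 8.36 on the high-fat diet, against 7.27 on the low-fat diet with clodronate, and at 7.52 on the high-fat diet, against 6.79 on the low-fat diet with PBS. Its averaged diet difference was 0.91 (SE 0.14; SD 0.25, n = 2; limma adjusted p = 0.0141), and 5 of 8 alternative settings lost the call. The clodronate differences of Cxcl1 were 0.49 with low fat and 0.84 with high fat, which did not pass (limma adjusted p = 0.0895), except after centring each array (0.66, limma adjusted p = 0.0182, against up to 0.513 in the other settings). Cxcl1 and Cxcl16 were the 2 of these 5 with an unadjusted p under 0.05 for clodronate.

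Cxcl16, a membrane-bound chemokine that also serves as a scavenger receptor, was at 3.80 with clodronate, against 4.81 with PBS on the low-fat diet, and at 3.90 with clodronate, against 4.39 with PBS on the high-fat diet. It did not pass (limma adjusted p = 0.468). Cxcl11, the third ligand of Cxcr3, differed by -0.30 on the low-fat diet and -0.32 on the high-fat diet, and Ccl25, a ligand of Ccr9, by -0.24 and -0.34, each with a limma adjusted p of 1.

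Of 23 chemokine receptors 21 had a probe set, and 20 of them were below 4 on all 4 arrays. Cxcr3 reached at most 2.96, Cxcr4 2.26, Cxcr5 1.88 and Ccr1 2.11. Ackr4, an atypical receptor that removes chemokines, was the single one tested. It was at 4.57 with clodronate, against 4.23 with PBS on the low-fat diet, and at 3.81 with clodronate, against 4.36 with PBS on the high-fat diet, and was not called (limma adjusted p = 1). Of 16 regulators of chemokine production or processing 14 had a probe set and 9 were tested, with 0 called for clodronate or diet, and 1 for clodronate and 0 for diet at an unadjusted p under 0.05. Ifng, which induces Cxcl9, was at most 1.66. Its receptor subunit Ifngr1 differed by -0.25 with low fat and -0.80 with high fat (limma adjusted p = 0.752). Hif1a, a transcription factor of the response to low oxygen, differed by 0.03 and 0.16 (limma adjusted p = 1).

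Among 7941 other genes at 4 or more on all 4 arrays, those with the profile most like that of Cxcl9 were Cd52, H2-Aa and Ap2b1. The measure was the root mean square difference between profiles centred on their mean over the 4 arrays, and it was 0.14, 0.17 and 0.17 (log2). Cd52 and H2-Aa encode a leukocyte surface glycoprotein and an MHC class II chain. H2-Aa was at 7.81 with clodronate, against 9.31 with PBS on the low-fat diet, and at 8.03 with clodronate, against 9.38 with PBS on the high-fat diet.

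For Cxcl10 the nearest profiles were those of H2-Ea, Olfm3 and Frmd4b, at 0.076, 0.078 and 0.079. H2-Ea, at 4.10 to 4.83 and thus close to the limit of 4, had clodronate differences of -0.63 with low fat and 0.24 with high fat. Those of Olfm3 were -0.66 and -0.11, and those of Frmd4b -0.58 and 0.11. The nearest profiles to Ccl9 were those of Atpaf2, Tinf2 and Ccdc25, at 0.011 to 0.017, and to Cxcl12 those of Efcab14, Gnai3 and Lig3, at 0.0066 to 0.0076. Ccl9 and Cxcl12 themselves were nearly flat over the arrays.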

How the data were processed

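Liver RNA was pooled per group and 1 array was hybridised per pool, per the labels' protocols. The authors deposited log2 expression values per probe set, computed by GCRMA (version 2.24.1, per the submitters' processing notes), which corrects background by probe sequence, normalizes between arrays and summarises probes. The log base was taken from the range of the values and the tool, since no label states it. Scanner files were not used here. The platform annotation named the probe sets, of which 34958 carried 1 symbol, and symbols were checked against RefSeq (GRCm38.p6) by Entrez identifier. A gene was represented by its probe set with the highest mean. The additive model (clodronate plus diet; limma 3.58.1, R 4.3.3, eBayes with a mean-dependent prior, Benjamini-Hochberg at 0.05) has 1 residual degree of freedom and 8.46 prior ones. Its residual is how far apart the clodronate differences of the 2 diets lie, moderated across genes. No group has replicate arrays, so a real difference between the diets in the clodronate effect counts as noise in the p-values. These p-values measure neither the technical spread nor that among mice. Values below 4 were set to 4 for differences of 2 arrays, not in the model. Remaining steps used Python 3.11.15.

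The chemokines, gene lists and tests were chosen with earlier results of these data known. Named genes were all 10 chemokines, the genes with the largest differences in each list of further chemokines, receptors and regulators (up to 4 for clodronate and 1 for diet, and any past the test), up to 2 genes of a cell type list, and the 3 genes with the most similar profile. Cxcr3, Cxcr4, Cxcr5, Ccr1 and Ifng were named after their values were seen. Sums without the brightest marker were added after seeing the data. Alternatives were the eBayes prior, scaling, probe set choice, filter and floor. List genes without a single-symbol probe set were not analysed here.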

Additional observations from a re-analysis of the deposited data

Results flagged for a closer look

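Differences of opposite sign in the paired comparisons drew attention to the following genes. The search covered only the chemokines and the genes picked from the lists by averaged difference, in which opposite signs cancel. In each case the difference between the groups was not tested, because 1 array per group leaves no spread to test it with. For Cxcl10 the clodronate difference was 0.08 on the high-fat diet and -0.74 on the low-fat diet, which are 0.82 apart (log2). The same 4 values give diet differences of 0.64 with clodronate and -0.18 with PBS, again 0.82 apart. For Cxcl9 the diet difference was 0.57 with clodronate and -0.07 with PBS, 0.64 apart. Its clodronate difference was below 0 on both diets.

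Further genes of the chemokine system ran the other way. Ackr4 had clodronate differences of -0.36 on the high-fat diet, where a value below 4 was set to 4, and 0.34 on the low-fat diet, so that the high-fat difference minus the low-fat difference was -0.70, as was the diet difference with clodronate minus that with PBS. Ifngr2, a subunit of the interferon gamma receptor, gave -0.77 for the same contrasts. Its high-fat clodronate value, 3.92, was also set to 4, and its others were 4.03 to 4.52, close to the limit. Dpp4, a protease that trims chemokines, gave -0.27. Listed genes outside the search also changed sign, among them the regulator Rela. Its clodronate differences were 0.49 on the low-fat diet and -0.47 on the high-fat diet, farther apart than those of Cxcl10.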

How the results depend on the processing

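Of the 5 chemokines tested, 2 were called with clodronate. The count was 1 with eBayes without the mean-dependent prior, after quantile normalization, with the mean of all probe sets of a gene, with every probe set tested on its own, without a filter, and with values below 4 set to 4 in the model, where Cxcl9 no longer passed. It was also 1 with genes at 4 or more on all 4 arrays, a filter that leaves Ccl6 out. It stayed at 2 after centring each array, a setting whose estimated prior had infinite degrees of freedom. Ccl6 passed in all 7 alternatives in which it was tested. Its deposited clodronate values lay below 4 on both diets, a limit that all 7 share. With a threshold of 3 in place of 4, 8 of the 10 chemokines were at or above it on some array, by the addition of Ccl2, Ccl5 and Cxcl13, against 5 at 4. The diet difference of Cxcl9 was -0.11 with the mean of its probe sets, against 0.25, and that of Dpp4 was 0.0726 with the mean of its probe sets and 0.00151 after quantile normalization, against -0.02. None of these passed the test. Counts of chemokines 2-fold or more changed were the same under every floor, scaling and probe set rule tried. Over all genes, clodronate calls ran from 30 to 106 lower and from 0 to 20 higher, against 84 and 10, and diet calls from 0 to 125 lower and from 0 to 108 higher, against 71 and 75. In limma with the plain prior, clodronate lowered 39 genes and raised 0, and diet had 0 calls, with 441 and 894 genes at an unadjusted p under 0.05. No paired analysis was possible because the labels give 1 pooled array per group and no replicate numbers, and leaving out an array leaves no residual degree of freedom.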
